A study of Mus musculus with 30 samples.

Results

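The genes described here are 8 transcription factors and signals of the primitive streak, T, Eomes, Evx1, Mixl1, Gsc, Mesp1, Wnt3 and Fgf8. They were taken by gene symbol, and they hold 9 of the 25697 probes and 8 of the 18097 gene symbols on the arrays. Every member has 1 probe except Mixl1, which has 2, and its brighter probe stands for the gene.

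The study used rescue clones of Ainv15, a mouse embryonic stem cell (ESC) line that expresses the reverse tetracycline transactivator. In each of Bub1b_R, Chek1_R, Ppm1g_R and Ppp2r1b_R, an shRNA is directed against the endogenous mRNA the clone is named for, and doxycycline (Dox) switches on a copy that the shRNA does not recognize. These 4 are called the shRNA clones below. Per the study's methods, the copy of Bub1b and of Chek1 lacks the shRNA's target, with cDNA without the 3′ UTR used where the shRNA lies there, and the copy of Ppm1g and of Ppp2r1b carries silent changes. Ctrl_R is the control clone. All clones grew in medium with LIF and 1 μg/ml Dox, on fibroblast feeders that were removed before the experiment by letting them settle, and Dox was then kept or withdrawn for 5 days. RNA of 5 clones in both states was hybridized to 30 Illumina mouse arrays, 3 per condition, of which the 6 of Ctrl_R come from an earlier submission. The labels do not say whether the 3 arrays of a condition come from separate cultures or separately derived clones, so p-values measure only the spread between these arrays, which may be technical. Between 11733 and 13685 probes were detected per array, and the number of arrays limits the precision.

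Bub1b encodes a spindle checkpoint protein, Chek1 a DNA damage checkpoint kinase, Ppm1g a protein phosphatase and Ppp2r1b a scaffold subunit of protein phosphatase 2A. Their own probes were read first, although where these probes lie in the transcripts is not given in the sources used here, so how much of the Dox-driven copy they read cannot be told. A probe in the 3′ UTR would not read a copy that lacks it and would then check nothing about Dox. Ppm1g fell by 1.25 on the log2 scale on withdrawal in Ppm1g_R (adjusted p = 1.42e-11 in the limma fit). Bub1b in Bub1b_R and Ppp2r1b in Ppp2r1b_R changed by -0.14 and 0.20, which did not pass the test. Mean log2 values with and without Dox were 9.84 and 9.70 for Bub1b in Bub1b_R, beside 10.54 and 10.37 in Ctrl_R. For Ppp2r1b in Ppp2r1b_R they were 6.09 and 6.29, beside 6.70 and 6.53 in Ctrl_R. For Ppm1g in Ppm1g_R they were 9.78 and 8.53, beside 10.11 and 10.28 in Ctrl_R. Chek1, the only one of the 4 with more than 1 probe, read higher without Dox in the arrays labelled Chek1_R. Its brightest probe was detected on 0 of 3 arrays with Dox and on 3 of 3 without. The second of its 3 probes was detected on 0 with Dox and on 1 without (mean log2 4.90 and 5.42), and the third on no array of any clone. Without Dox the brightest probe was 1.07 lower on the log2 scale in Chek1_R than in Ctrl_R (limma adjusted p = 5.85e-07). With Dox its mean was 5.31 in Chek1_R, where no array detected it, and 7.18 in Ctrl_R, so it read below Ctrl_R in both states. These probes therefore do not settle whether the Dox-driven Chek1 copy was on. The arrays are called by their labels below.

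The primitive streak is the structure at the posterior side of the gastrulating embryo through which epiblast cells leave to become mesoderm and definitive endoderm. WNT3 and NODAL signals induce it, BMP4 from the adjoining extraembryonic ectoderm acts upstream, and FGF8 is needed for cells to move away from it. The T-box factors T (Brachyury) and EOMES and the homeobox factor MIXL1 mark the streak and direct mesoderm and endoderm formation, EVX1 marks its posterior part, GSC its anterior part, and MESP1 the mesoderm that first leaves it. ESCs held in LIF express little of these genes, and they come on early when the cells differentiate toward mesoderm.

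RefSeq promoter windows (build GRCm38.p6, from 250 bases before to 50 after the start) were at hand for 6 of the 8 members, T, Eomes, Evx1, Gsc, Mesp1 and Wnt3. They were searched on both strands for the core bound by the TCF/LEF factors of the Wnt pathway, CTTTGAT or CTTTGAA, and for a T-box half-site, TCACACC. The TCF/LEF core was in 8.65% and the T-box half-site in 3.98% of all 32851 windows of the same length. Among the 6 members, T held 1 TCF/LEF match and Mesp1 held 2 together with 1 T-box match, and the other windows held neither. The T and Mesp1 windows are shown because they hold the matches, and Evx1, which rose in all 4 shRNA clones, because it holds none. Capitals mark the matches, which overlap no other match, in the direction of transcription.
T (chr17:8434173-8434472, plus strand): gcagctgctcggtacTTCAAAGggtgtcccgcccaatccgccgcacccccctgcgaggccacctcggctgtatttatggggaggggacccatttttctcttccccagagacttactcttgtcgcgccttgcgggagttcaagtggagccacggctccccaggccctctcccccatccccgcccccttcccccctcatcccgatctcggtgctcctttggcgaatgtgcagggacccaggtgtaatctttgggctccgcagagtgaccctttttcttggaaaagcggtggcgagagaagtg
Mesp1 (chr7:79793541-79793840, minus strand): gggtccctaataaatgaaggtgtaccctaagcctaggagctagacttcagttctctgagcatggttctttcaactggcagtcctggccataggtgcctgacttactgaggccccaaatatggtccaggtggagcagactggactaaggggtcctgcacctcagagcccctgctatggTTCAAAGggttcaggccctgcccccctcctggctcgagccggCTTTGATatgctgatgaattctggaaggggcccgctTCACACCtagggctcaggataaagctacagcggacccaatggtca
Evx1 (chr6:52313248-52313547, plus strand): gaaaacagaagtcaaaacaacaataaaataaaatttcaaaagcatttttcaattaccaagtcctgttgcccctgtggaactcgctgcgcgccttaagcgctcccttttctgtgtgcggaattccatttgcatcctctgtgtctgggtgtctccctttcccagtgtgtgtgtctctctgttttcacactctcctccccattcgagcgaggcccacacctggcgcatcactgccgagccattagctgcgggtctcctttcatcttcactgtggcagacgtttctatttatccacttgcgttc
The match in T lies 235 to 229 bases before the start, on the strand opposite to transcription. In Mesp1 the TCF/LEF matches begin 73 and 31 bases before the start, and the T-box match lies just past it. A match is a run of letters and no measured binding.

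When Dox was withdrawn, all 8 members were called higher in Bub1b_R and in Chek1_R, fewer in Ppm1g_R and Ppp2r1b_R, and T and Fgf8 also in Ctrl_R. A gene was called higher or lower at an adjusted p under 0.05 in 1 limma fit over 15151 probes and at least 1.5-fold. In Bub1b_R, 8 of the 8 members were called higher, where 2.94% of all tested probes were. In Chek1_R it was 8 of 8, against 4.49% of probes. Ppm1g_R had 6 of 8 (2.3% of probes) and Ppp2r1b_R 4 of 8 (2.77%), among them Eomes, which no array of that clone detected, while Ctrl_R had 2 of 8 (0.706%). No member was called lower in any clone, beside 2.67%, 4.77%, 2.07%, 2.05% and 0.396% of probes in that order. The median change of the members on the log2 scale was 2.12 in Bub1b_R, 2.67 in Chek1_R, 1.00 in Ppm1g_R, 0.60 in Ppp2r1b_R and 0.12 in Ctrl_R, beside medians over all probes between -0.02 and 0. These medians hold fitted values of conditions with no detection. With such members at the bound explained below, or at 0 where neither condition was detected, they were 1.86, 1.96, 1.00, 0.28 and 0. All 8 passed the filter on low values, which asks for detection on at least 3 arrays. Of the 10 arrays that detected Eomes, and of the 10 that detected Mixl1, 9 were those without Dox of Bub1b_R, Chek1_R and Ppm1g_R, so their passing favoured a difference. Mesp1 was detected on those 9 too, but also on the 3 arrays of Bub1b_R with Dox and on 1 of Ctrl_R without. In bulk RNA, a larger share of cells with a transcript and more transcript per cell cannot be told apart.

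Detection split the members. Gsc, a homeobox factor, and Fgf8, a secreted ligand, were detected on 30 of 30 arrays, T on 29, Evx1 on 25 and Wnt3 on 23. Mesp1 was detected on 13 arrays, and Eomes and Mixl1 on 10 each. In Ppp2r1b_R neither Eomes, Mixl1 nor Mesp1 was detected on any of the 6 arrays. In Ctrl_R, Eomes and Mixl1 were detected on 0 of 6 arrays and Mesp1 on 1, and Wnt3 on 1. Where a probe was detected on no array of a condition, its fold is given below as a bound, the detected group against the lowest signal detected on each array, and where neither condition had detection no fold is given.

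**Figure D1:**
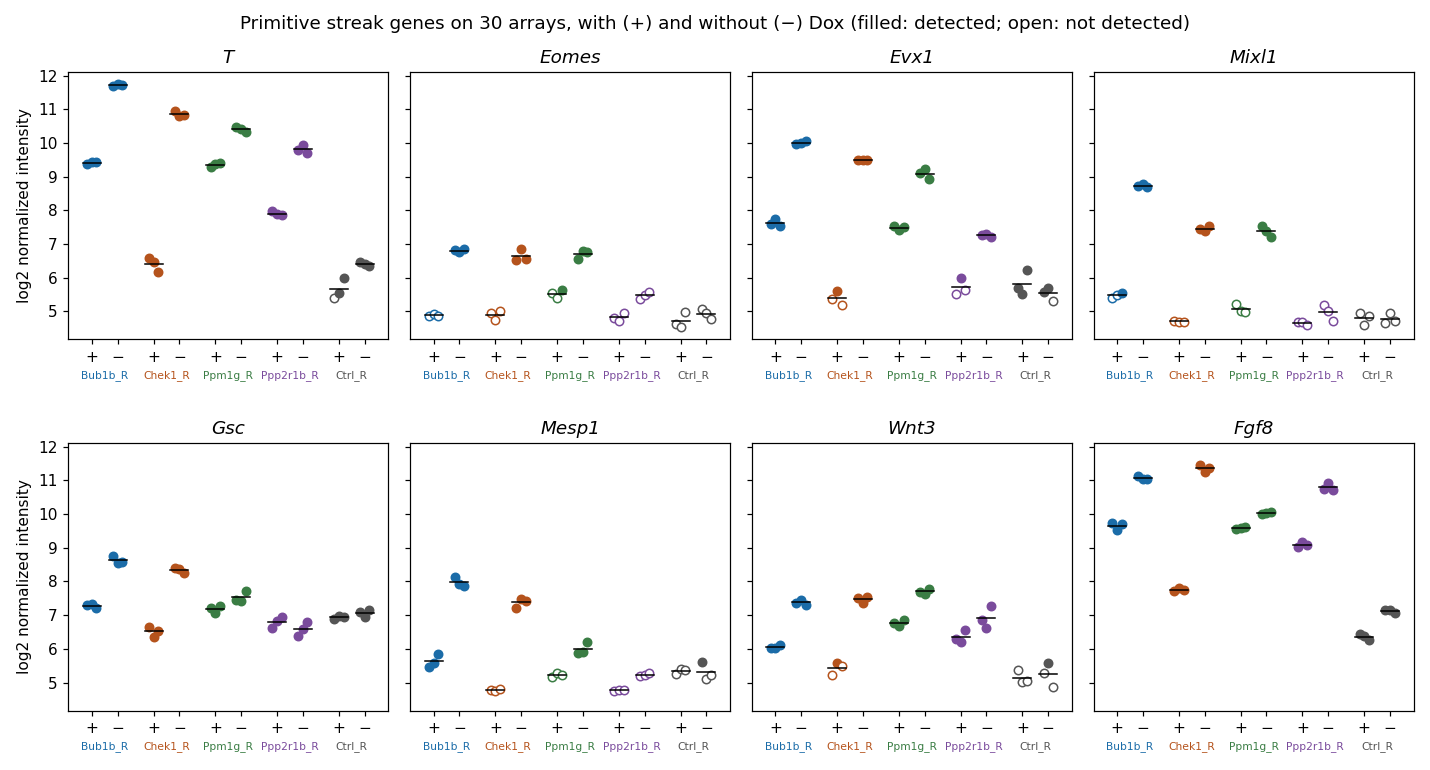
Normalized log2 intensity (vertical axis) of the 8 members on each of the 30 arrays, by clone and Dox state, with 1 point per array and a bar at the mean of 3. Filled points are detected and open points are not, and T and Fgf8 with Dox lie far above Ctrl_R in Bub1b_R and Ppm1g_R, with T means of 9.41 and 9.36 against 5.65.

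T, the founding T-box factor and a direct Wnt target in the streak, covered the widest range of the 8 on the normalized log2 scale. Its lowest value there was not detected. In Bub1b_R its normalized log2 intensities were 9.37, 9.44 and 9.43 with Dox and 11.69, 11.75 and 11.73 without. The arrays labelled Chek1_R read 6.60, 6.47 and 6.17 with Dox and 10.94, 10.79 and 10.84 without. Without Dox these clones lay within 1 log2 unit of each other, although their means with Dox were 9.41 and 6.41.
In Ppm1g_R, T read 9.30, 9.37 and 9.41 with Dox and 10.47, 10.41 and 10.34 without. Ppp2r1b_R gave 7.98, 7.88 and 7.85 with Dox and 9.78, 9.95 and 9.69 without. Ctrl_R lay at 5.41, 5.56 and 6.00 with Dox, the first of them not detected, and at 6.46, 6.40 and 6.35 without. The arrays without Dox were above those with Dox in every clone, with no overlap. Such a separation upward was seen for 20.4% of probes in Bub1b_R, 20.8% in Chek1_R, 18.3% in Ppm1g_R, 15.8% in Ppp2r1b_R and 13% in Ctrl_R, so it carries less than the size of the change. T rose 4.96-fold in Bub1b_R (log2 2.31 ± 0.11 SE, n = 3 per condition, adjusted p = 1.57e-13 in limma) and 21.7-fold in Chek1_R (4.44, adjusted p = 7.21e-20). The rise was 2.07-fold in Ppm1g_R, 3.74-fold in Ppp2r1b_R and 1.68-fold in Ctrl_R (limma adjusted p = 1.63e-07, 8.24e-12 and 0.000123). The Ctrl_R rise missed the call when an offset of 50 replaced 16 in the normalization (log2 0.49), when only the arrays compared were fitted (0.75, adjusted p = 0.0709) and under the methods' t-test (adjusted p = 0.173).

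Eomes, the T-box factor needed for endoderm and for cells to leave the epiblast, was often undetected. It was detected on all 3 arrays without Dox of Bub1b_R (log2 6.81, 6.76 and 6.85), Chek1_R (6.52, 6.85 and 6.55) and Ppm1g_R (6.55, 6.79 and 6.76), and with Dox only on 1 array of Ppm1g_R. It was at least 2.53-fold higher without Dox in Bub1b_R and at least 2.08-fold in Chek1_R, and 2.26-fold higher in Ppm1g_R (limma adjusted p = 5.18e-12, 9.45e-12 and 4.05e-08). The fold in Ppm1g_R is set against values mostly at background. In Ppp2r1b_R its values passed the call as well (adjusted p = 0.000155), but no array of either condition detected it, so this is no measured rise. The call was lost with an offset of 50 (log2 0.33) and under the methods' t-test (adjusted p = 0.0555). Without background correction the call in Ppm1g_R was lost (log2 1.63, limma adjusted p = 0.202).

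Evx1, a posterior streak homeobox gene, rose in all 4 shRNA clones. Its log2 values with and without Dox were 7.55 to 7.75 and 9.97 to 10.06 in Bub1b_R, 5.20 to 5.62 and 9.48 to 9.50 in Chek1_R, 7.41 to 7.53 and 8.92 to 9.24 in Ppm1g_R, and 5.53 to 6.00 and 7.22 to 7.29 in Ppp2r1b_R. No pair of conditions overlapped in these clones. The rises were 5.20-fold, 17.2-fold, 3.03-fold and 2.91-fold in that order, with limma adjusted p of 9.86e-12, 6e-17, 1.44e-08 and 2.54e-08. With Dox, 1 of 3 arrays detected Evx1 in Chek1_R and 1 of 3 in Ppp2r1b_R, so the folds of these 2 clones are set against values mostly at background. In Ctrl_R, values of 5.53 to 6.23 with Dox and 5.32 to 5.71 without overlapped, and the difference of -0.29 did not pass (adjusted p = 0.244). T and Evx1 were the members called higher and measured in all 4 shRNA clones, a call made for 0.515% of tested probes, and Eomes shared it only by the undetected values in Ppp2r1b_R.

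Mixl1, a homeobox factor of mesoderm and endoderm progenitors, was detected on at most 1 of 3 arrays with Dox and on 3 of 3 without in 3 clones. With Dox it read 5.41, 5.48 and 5.56 in Bub1b_R, the last of these detected, and without Dox 8.72, 8.77 and 8.68. In Chek1_R it moved from 4.73, 4.69 and 4.70, none detected, to 7.45, 7.39 and 7.53. In Ppm1g_R it moved from 5.22, 5.00 and 4.98, again undetected, to 7.53, 7.40 and 7.20. Every array without Dox of these clones detected Mixl1, and the conditions did not overlap. The rise was 9.44-fold in Bub1b_R, at least 3.67-fold in Chek1_R and at least 3.42-fold in Ppm1g_R (limma adjusted p = 3.01e-16, 4.92e-16 and 3.24e-13). The second Mixl1 probe gave the same calls, 5.90-fold in Bub1b_R and at least 3.56-fold and 3.54-fold in Chek1_R and Ppm1g_R. Each probe was detected on 1 of 3 Bub1b_R arrays with Dox, so the folds there are set against values mostly at background. Ppp2r1b_R read 4.61 to 4.70 with Dox and 4.73 to 5.20 without, and Ctrl_R 4.60 to 4.94 and 4.67 to 4.95, with no array detected.

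Gsc, an anterior streak and organizer homeobox gene, was present on every array and rose in 2 clones. Bub1b_R went from 7.21 to 7.34 with Dox to 8.56 to 8.77 without, and Chek1_R from 6.36 to 6.66 to 8.24 to 8.41. These were rises of 2.55-fold and 3.54-fold (limma adjusted p = 1.1e-09 and 1.36e-12). In Ppm1g_R the change of 0.35 on the log2 scale was under 1.5-fold (adjusted p = 0.0171). The changes of -0.20 in Ppp2r1b_R and 0.12 in Ctrl_R did not pass (adjusted p = 0.167 and 0.559), and the conditions overlapped there.

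Mesp1, the basic helix-loop-helix factor of nascent and cardiac mesoderm, followed Gsc in the 2 clones where Gsc rose. Bub1b_R read 5.47, 5.58 and 5.85 with Dox, and 8.14, 7.92 and 7.87 without, which is 5.08-fold. Chek1_R read 4.77, 4.75 and 4.82 with Dox, none detected, and 7.21, 7.49 and 7.43 without, at least 3.47-fold higher (adjusted p = 1.85e-13 and 4.23e-15 in limma for these clones). In Ppm1g_R the values without Dox, 5.89, 5.90 and 6.21, were detected and those with Dox, 5.17, 5.29 and 5.23, were not. That made a rise of at least 1.31-fold (limma adjusted p = 1.7e-05), the smallest bound among the called members, and an offset of 50 ended the call.

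Wnt3, the ligand that induces the streak, rose in 3 clones. Its log2 values went from 6.01 to 6.11 with Dox to 7.30 to 7.46 without in Bub1b_R, from 5.21 to 5.59 to 7.36 to 7.55 in Chek1_R, and from 6.67 to 6.86 to 7.64 to 7.79 in Ppm1g_R. The rises were 2.51-fold, 4.12-fold and 1.93-fold (limma adjusted p = 3.65e-07, 1.25e-10 and 5.26e-05). In Chek1_R with Dox 1 of 3 arrays detected Wnt3, so the fold there is set against values mostly at background. In Ppp2r1b_R it read 6.21 to 6.56 with Dox and 6.63 to 7.27 without. That change, 1.48-fold (limma adjusted p = 0.00713), lay just under the fold limit and crossed it when 1 array was left out, at log2 0.67 without Ppp2r1b_R +Dox replicate 3, and 0.60 and 0.71 without its -Dox replicate 1 or 2. The rise in Ppm1g_R was not called without background correction (log2 1.06, limma adjusted p = 0.18).

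Fgf8, the ligand that acts on cells leaving the streak, was detected on every array. Bub1b_R read 9.75, 9.53 and 9.70 with Dox and 11.12, 11.04 and 11.05 without. Chek1_R read 7.71, 7.80 and 7.76 with Dox and 11.45, 11.26 and 11.38 without. Ppp2r1b_R read 9.03, 9.18 and 9.07 with Dox and 10.75, 10.93 and 10.71 without. In these 3 clones the conditions lay more than 1 log2 unit apart, and Fgf8 rose 2.66-fold, 12.2-fold and 3.25-fold (limma adjusted p = 2.79e-13, 7.01e-22 and 4.22e-14). Ppm1g_R read 9.56, 9.60 and 9.61 with Dox and 9.99, 10.02 and 10.05 without, a change of 1.35-fold that passed the p but not the fold limit (adjusted p = 5.03e-05). Ctrl_R read 6.43, 6.39 and 6.27 with Dox and 7.15, 7.16 and 7.07 without, and its rise of 1.69-fold was called (adjusted p = 1.53e-07) but not with an offset of 50 (log2 0.58).

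**Figure D2:**
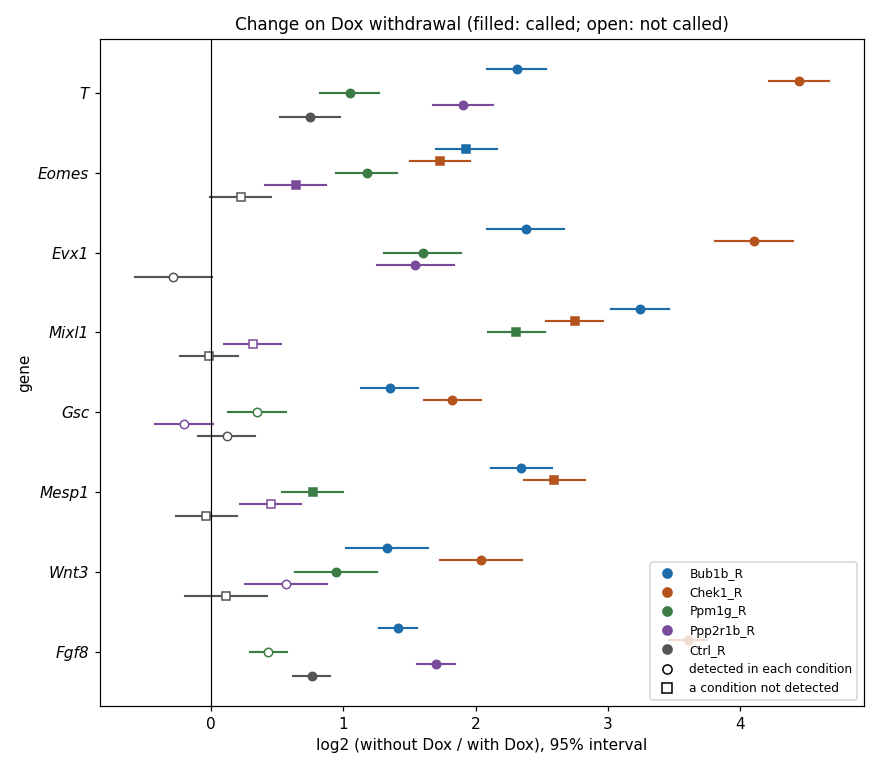
Change of each member on Dox withdrawal (horizontal axis, log2 of without over with Dox) in the 5 clones, as the fitted value with its 95% interval. Filled points were called and squares mark changes with a condition not detected on any array, which are fitted values and not measured sizes. Mixl1 in Bub1b_R lies at 3.24, set against values with Dox of which 1 of 3 was detected. In Ctrl_R, T at 0.75 and Fgf8 at 0.76 are the only called members.

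The change on withdrawal in each shRNA clone was set against that in the control clone. The difference crosses submission in every clone, and in Chek1_R, Ppm1g_R and Ppp2r1b_R also the background set described below. Clone cannot be told apart from these. The change minus that in Ctrl_R was called higher for 8 of 8 members in Bub1b_R (2.7% of all probes), 8 of 8 in Chek1_R (4.37%), 5 of 8 in Ppm1g_R (2.73%) and 3 of 8 in Ppp2r1b_R (1.71%), and lower for none (2.45%, 4.62%, 2.54% and 1.57% of probes in that order). Eomes, Mixl1, Mesp1 and Wnt3 were detected on no Ctrl_R array with Dox, so their differences hold values at background and no size is given for them. Each of the other 4 members was detected on at least 1 array of every condition, with Evx1 on 1 of 3 in Chek1_R and in Ppp2r1b_R with Dox, so that its sizes there rest mostly on background values. In Ctrl_R itself, T with Dox (5.41 to 6.00) and Evx1 in both states (5.32 to 6.23) lay near background. The sizes of T and Evx1 therefore rest on a control change near background in every clone. That of Evx1 was -0.29 and did not pass, which adds to its sizes here. Of these 4, T, Evx1, Gsc and Fgf8 were all called in Bub1b_R (1.56, 2.66, 1.23 and 0.65) and in Chek1_R (3.69, 4.39, 1.71 and 2.84). In Ppp2r1b_R these were T (1.15), Evx1 (1.83) and Fgf8 (0.94). In Ppm1g_R Evx1 (1.88) was the one called, beside Eomes, Mixl1, Mesp1 and Wnt3 without a size (limma adjusted p = 0.000214, 1.11e-09, 0.00131 and 0.0105). T in Ppm1g_R exceeded the control by 0.30 (95% interval -0.02 to 0.62, limma adjusted p = 0.226), so its rise there was not told apart from that in Ctrl_R. Without background correction that difference was -0.01. Fgf8 in Ppm1g_R rose less than in Ctrl_R, by -0.33 (interval -0.53 to -0.13, adjusted p = 0.0276), which is under the fold limit. Fgf8 in Bub1b_R passed at 0.65, but not without Bub1b_R +Dox replicate 2 (0.58). Without background correction the calls were lost for Eomes in Chek1_R and Ppm1g_R (limma adjusted p = 0.064 and 0.829), Wnt3 in Bub1b_R and Ppm1g_R (0.165 and 0.358), the second Mixl1 probe in the same clones (0.165 and 0.159) and Fgf8 in Bub1b_R (difference 0.54), and an offset of 50 ended that for Mesp1 in Ppm1g_R. Without the correction the fitted difference was smaller than with it for Eomes in Ppm1g_R and Fgf8 in Bub1b_R. It was also smaller for the second Mixl1 probe in Bub1b_R and Ppm1g_R. It was larger, although the call was lost, for Eomes in Chek1_R and Wnt3 in Bub1b_R and Ppm1g_R. Lack of background correction also added calls in Ppp2r1b_R, for Mesp1 minus Ctrl_R (limma adjusted p = 6.4e-08), Mesp1 and Mixl1 on withdrawal (3.82e-11 and 0.0225) and Eomes without Dox against Ctrl_R (0.0111), although no Ppp2r1b_R array detected these genes. These 4 comparisons share the Ctrl_R arrays. A difference of changes rests on 4 means, so its error is larger than that of the change within a clone (SE 0.15 against 0.11 for T), and a member that was not called may still differ from the control.

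**Figure D3:**
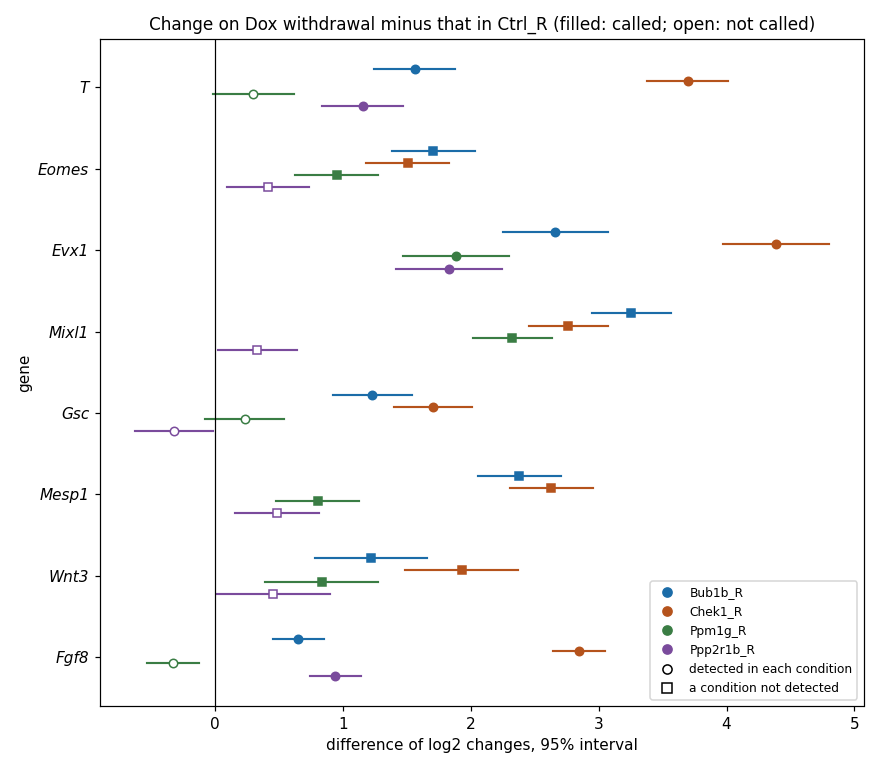
Change on Dox withdrawal in each shRNA clone minus the change in Ctrl_R (horizontal axis, difference of log2 changes) with its 95% interval, for the 8 members. Filled points were called and squares mark members with a condition not detected on any array, whose positions are fitted values with no measured size. In Ppm1g_R the point for T lies at 0.30 and that for Fgf8 at -0.33, both open.

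Levels on the arrays kept in Dox also differed from those of Ctrl_R. Clone cannot be told apart from submission there, nor from background set in Chek1_R, Ppm1g_R and Ppp2r1b_R, as set out below. With Dox against Ctrl_R with Dox, a comparison added after the values had been seen, 5 of 8 members were higher in Bub1b_R, where 6.6% of probes were. In Chek1_R it was 2 of 8 (9.75% of probes), in Ppm1g_R 5 of 8 (14.8%) and in Ppp2r1b_R 3 of 8 (14.2%), and none was lower, beside 6.09%, 7.81%, 14.3% and 14.1% of probes. T was higher by 3.76 on the log2 scale in Bub1b_R, 0.76 in Chek1_R, 3.70 in Ppm1g_R and 2.25 in Ppp2r1b_R. Fgf8 was higher by 3.29, 1.39, 3.22 and 2.73 in that order. Mixl1, by contrast, was called only in Bub1b_R, where 1 of 3 arrays detected it (limma adjusted p = 1.18e-05), and Gsc and Mesp1 were called in no clone. The counts also take in Wnt3 in Bub1b_R, Ppm1g_R and Ppp2r1b_R, and Eomes in Ppm1g_R, where 1 of 3 arrays detected it. No Ctrl_R array with Dox detected Mixl1, Wnt3 or Eomes.

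Without Dox, 8 of 8 members were higher than in Ctrl_R in Bub1b_R (10.9% of probes), 8 of 8 in Chek1_R (14.1%), 7 of 8 in Ppm1g_R (16.7%) and 4 of 8 in Ppp2r1b_R (16.6%). T stood 40.0-fold, 21.9-fold, 16.1-fold and 10.6-fold above Ctrl_R, and Fgf8 15.4-fold, 18.8-fold, 7.43-fold and 12.7-fold. Mixl1 was at least 9.96-fold, 4.14-fold and 3.92-fold higher in the first 3 clones. Wnt3 was higher by 2.13, 2.22, 2.46 and 1.67 on the log2 scale, set against Ctrl_R values of which 1 of 3 was detected. Mesp1 was detected on 1 of 3 of these Ctrl_R arrays too and Evx1 on 2 of 3, and an offset of 50 ended the call of Mesp1 in Ppm1g_R (log2 0.41). Gsc was the member not called in Ppm1g_R (0.47), and in Ppp2r1b_R it was 0.47 lower, under the fold limit. The arrays fall into 2 sets by their background. On the 12 arrays of Bub1b_R and Ctrl_R the lowest detected signal was 12.9 to 20.9, and on the 18 arrays of the other 3 clones it was 27.8 to 58.1. The Ctrl_R arrays were also submitted earlier than those of the other 4 clones and were reused by the study. Clone therefore cannot be told apart from submission in any comparison of levels with Ctrl_R, nor from background set in those of Chek1_R, Ppm1g_R and Ppp2r1b_R, and the similar background of Bub1b_R does not show that its comparison is free of such a difference. Withdrawal within a clone stays within a set and a submission. Its difference from the change in Ctrl_R crosses submission in every clone, and set in all but Bub1b_R.

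The order of the 10 conditions on the normalized scale differed by gene. Bub1b_R lies in the set of low background and Chek1_R, Ppm1g_R and Ppp2r1b_R in the other, so clone cannot be told apart from set wherever Bub1b_R is placed above or below these 3. T was highest in Bub1b_R without Dox (mean 11.72), followed by Chek1_R (10.85), Ppm1g_R (10.41) and Ppp2r1b_R (9.81), each separated from the next, and T in Bub1b_R with Dox (9.41) overlapped that in Ppm1g_R with Dox (9.36). Mixl1 and Gsc also led in Bub1b_R without Dox, at 8.72 and 8.63. For Gsc the deposited signals, not normalized between arrays, ran the other way, with means of 341.1 in Bub1b_R and 391.5 in Chek1_R without Dox, so its lead rests on the normalization. The same holds for the second Mixl1 probe, with mean signals of 196.9 in Bub1b_R and 213.0 in Ppm1g_R without Dox. Eomes had its highest normalized mean in Bub1b_R without Dox (6.81), overlapping Ppm1g_R (6.70). Its mean signals without Dox were 80.5 in Bub1b_R, 109.3 in Chek1_R and 120.9 in Ppm1g_R. The deposited signals of T with Dox did not overlap, at 495.6 to 579.1 in Bub1b_R and 724 to 1114.9 in Ppm1g_R. Fgf8 was highest on the arrays labelled Chek1_R without Dox (11.36) and Wnt3 in Ppm1g_R without Dox (7.71). For Wnt3, Chek1_R (7.48) and Bub1b_R (7.38) without Dox overlapped.

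Whether the change on withdrawal was the same in the 4 shRNA clones was asked with an F-test in the same fit, which 24% of all probes passed at an adjusted p under 0.05. All 8 members passed, with F from 17.5 for Wnt3 (limma adjusted p = 0.000111) to 372.6 for Fgf8 (adjusted p = 3.61e-16). All 8 also passed without the arrays labelled Chek1_R, in a test among the other 3 clones that 15.4% of probes passed, where Wnt3 had the highest adjusted p (0.0423). That version was added after the values had been seen. In both tests Eomes, Mixl1 and Mesp1 enter with values at background in Ppp2r1b_R, where no array detected them. They passed the detection filter through arrays of other clones only, which favoured a difference among clones.

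Genes most like each member were sought over the 30 arrays by Pearson's r after each clone's mean was subtracted, so that the points share clones, arrays and the withdrawal of Dox. Among the members r ran from 0.76 for Mixl1 and Fgf8 to 0.983 for T and Fgf8, with 0.968 for T and Evx1 and 0.96 for Eomes and Mixl1. Outside the members, T was closest to D030013I16Rik (0.991), Defcr-rs7 (0.987) and LOC100044289 (0.983). Evx1 was closest to Klhl6 (0.983), and to Agtrl1, the apelin receptor, and Dusp4, a MAP kinase phosphatase (0.98 each). For Mesp1 the closest genes were Lhx1 (0.979), a LIM homeobox gene of streak derivatives, Chst7 (0.958) and Dgkk (0.956), and for Gsc they were Mesp1 (0.948), Fgf10 (0.935) and LOC100045567 (0.934). Wnt3 lay closest to Mx2 (0.957) and to Lxn and Anxa5 (0.954 each). Mixl1 lay closest to LOC100044363 (0.967), Eomes (0.96) and Plac1 (0.956), and Eomes to Mixl1, Arpc5 (0.957) and LOC100044363 (0.956). Fgf8 was closest to LOC100044289 (0.99), D030013I16Rik (0.985) and Tmem176b (0.984).

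Other genes of the pathways that act in the streak were read from lists, whose counts stand beside the shares of all probes given above. The brightest probe stands for each listed gene. Of 17 tested Wnt pathway genes (18 listed), 7 were called higher in Bub1b_R, 8 in Chek1_R, 8 in Ppm1g_R, 5 in Ppp2r1b_R and 0 in Ctrl_R, and none lower. Thus 10, 9, 9 and 12 of the 17 were not called in the shRNA clones. Their median log2 changes were 0.39, 0.46, 0.52, 0.21 and 0.16 as fitted, and 0.39, 0.40, 0.52, 0.10 and 0.02 with undetected conditions at their bound. For the change minus that in Ctrl_R, 7, 8, 6 and 2 were higher and 1 was lower, in Ppm1g_R. Such counts, here and for the lists that follow, take in genes with a condition that was not detected. Rspo3, a secreted enhancer of Wnt signalling, rose by 1.78, 1.00 and 2.06 on the log2 scale in Bub1b_R, Ppm1g_R and Ppp2r1b_R and was at least 11.2-fold higher in Chek1_R. The ligand Wnt5a rose by 1.61, 3.45, 1.34 and 1.33 in Bub1b_R, Chek1_R, Ppm1g_R and Ppp2r1b_R, and its change in Ctrl_R was 0.01. Wnt5b, a related ligand, rose by 1.69, 1.27 and 1.17 in Bub1b_R, Ppm1g_R and Ppp2r1b_R and was at least 2.72-fold higher in Chek1_R.

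In the BMP pathway, 4, 4, 4 and 3 of 11 tested genes (14 listed) were called higher in Bub1b_R, Chek1_R, Ppm1g_R and Ppp2r1b_R, and 1 lower in Chek1_R and in Ppm1g_R, with none called in Ctrl_R. Msx1, a homeobox target of BMP signals, rose by 1.98, 2.81, 1.01 and 1.07. Nog, a secreted BMP inhibitor, rose by 0.67, 2.04 and 0.98 and the ligand Bmp4 by 0.63, 1.42 and 0.71 in Bub1b_R, Chek1_R and Ppp2r1b_R, with neither called in Ppm1g_R (-0.29 and 0.44). The median changes of the list were 0.38, 0.24, 0.30 and 0.42. Minus Ctrl_R, 3 were higher in each shRNA clone, and 1 was lower in Chek1_R and 2 in Ppm1g_R.

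The Nodal pathway had fewer calls. Of 10 tested genes (12 listed), 1 was higher in Bub1b_R, 1 higher and 1 lower in Chek1_R, and none was called in Ppm1g_R, Ppp2r1b_R or Ctrl_R, with medians between -0.07 and 0.10. Lefty2, a Nodal inhibitor, rose by 0.82 in Bub1b_R and 1.48 in Chek1_R, and its changes of 0.38, 0.24 and 0.34 in Ppm1g_R, Ppp2r1b_R and Ctrl_R were not called. Gdf3, a TGF-beta family ligand expressed in ESCs, fell by 0.59 in Chek1_R. The co-receptor Tdgf1 was called in no clone, with values from -0.48 to 0.35. Minus Ctrl_R, 1 gene was higher, in Chek1_R, and 1, 3, 1 and 0 were lower in Bub1b_R, Chek1_R, Ppm1g_R and Ppp2r1b_R.

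FGF genes other than Fgf8 went both ways. Fgf4, an ESC ligand, fell by 0.96, 0.91 and 0.75 on the log2 scale in Bub1b_R, Chek1_R and Ppm1g_R. Fgf5, a marker of the primed epiblast, rose by 0.95 in Bub1b_R and 2.42 in Chek1_R, and Fgf17 by 1.20 in Chek1_R. Of 11 tested genes (13 listed), 2, 2, 1 and 0 were higher and 1, 3, 1 and 0 lower in Bub1b_R, Chek1_R, Ppm1g_R and Ppp2r1b_R, and 1 was lower in Ctrl_R. Against the change in Ctrl_R, 3, 3, 3 and 1 were higher and 1, 3, 2 and 0 lower. The epiblast list of 7 genes had 1 higher in Bub1b_R, 2 higher and 1 lower in Chek1_R and 1 lower in Ppm1g_R. Among them Otx2, a homeobox gene of the anterior epiblast, fell by 0.87 in Chek1_R and by 0.77 in Ppm1g_R, and Pou3f1, a POU factor of the epiblast, was called in no clone (0.09 to 0.35). Minus Ctrl_R, 1, 1, 0 and 1 of the 7 were higher and 0, 1, 1 and 1 lower.

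Genes of nascent and posterior mesoderm, which forms from the streak, were tested for 11 of 20 listed. Of these, 5, 6, 5 and 3 were higher in Bub1b_R, Chek1_R, Ppm1g_R and Ppp2r1b_R, 1 was lower in Ppm1g_R and 1 in Ctrl_R. Cdx2, a caudal homeobox gene that also marks trophoblast, rose by 1.74, 3.97, 1.21 and 1.54. Agtrl1 rose by 1.99 and 1.13 in Bub1b_R and Ppm1g_R and was at least 5.23-fold and 2.14-fold higher in Chek1_R and Ppp2r1b_R. Pdgfra, a receptor of paraxial mesoderm, rose by 1.44 and 1.20 in Bub1b_R and Ppp2r1b_R and was at least 4.36-fold and 1.92-fold higher in Chek1_R and Ppm1g_R. These 3 genes were called in all 4 shRNA clones, as 0.515% of tested probes were, and not in Ctrl_R. They were named for the largest absolute mean change over the same 4 clones, which favoured such calls. Minus Ctrl_R, 5, 6, 6 and 4 of the 11 were higher, and 1 was lower in Chek1_R and in Ppm1g_R.

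Anterior streak and definitive endoderm genes (8 tested of 12) were higher for 4 in Bub1b_R, 2 in Chek1_R and 2 in Ppm1g_R, with 1 lower in each of the last 2, and none was called in Ppp2r1b_R or Ctrl_R. Lhx1 was at least 5.45-fold, 3.37-fold and 1.21-fold higher in Bub1b_R, Chek1_R and Ppm1g_R. Cxcr4, a chemokine receptor of definitive endoderm and mesoderm, rose by 1.04, 1.22 and 0.67. Gata6, an endoderm factor, rose by 1.29 in Bub1b_R and was not called in the other shRNA clones (0.35, 0.37 and 0.18). Minus Ctrl_R, 3, 2, 1 and 0 of the 8 were higher and 0, 1, 1 and 1 lower. Foxa2, a defining factor of this list, was detected on 0 arrays by either of its 2 probes.

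**Figure D4:**
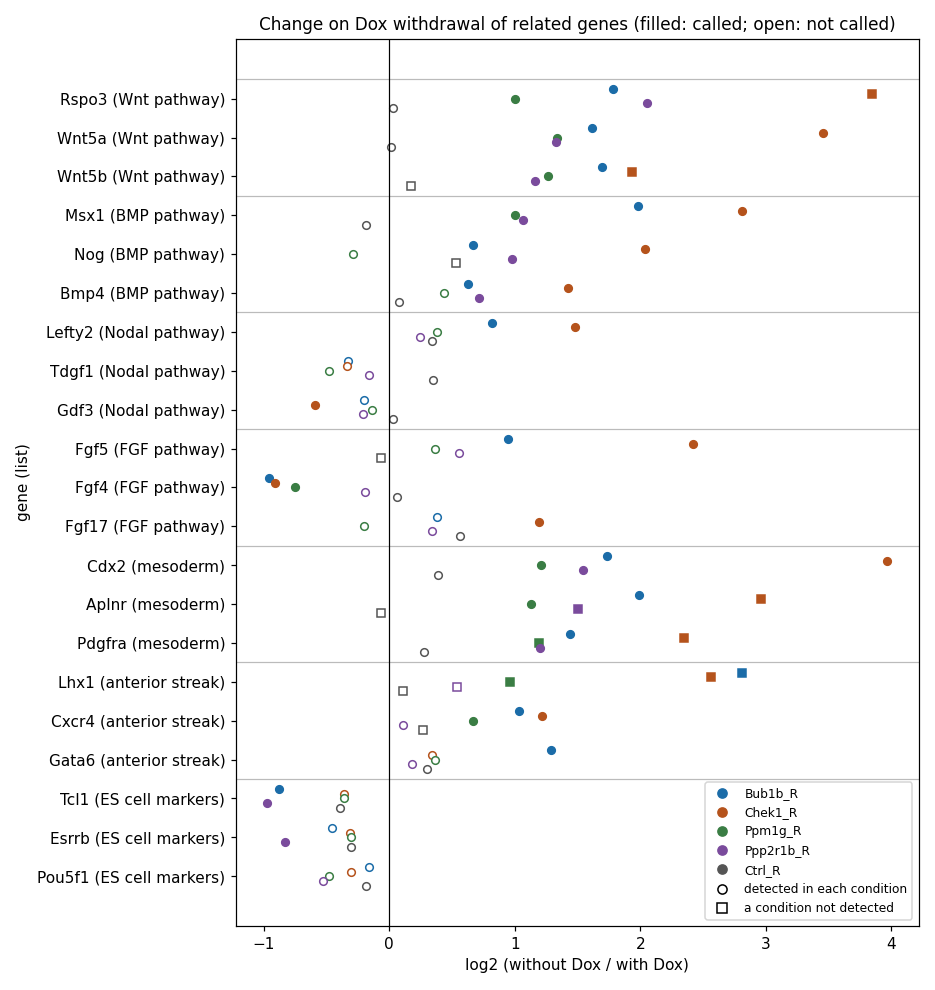
Change on Dox withdrawal (horizontal axis, log2 of without over with Dox) of the 3 genes with the largest absolute mean change over the 4 shRNA clones in each of 7 lists, with 1 point per clone. Filled points were called and squares are fitted values with a condition not detected on any array, with Cdx2 in Bub1b_R at 1.74 and Tcl1 in Ppp2r1b_R at -0.97.

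Markers of ESCs and of other cell types were read on the same arrays. All 8 ESC markers were tested, and 1 was lower in Bub1b_R and 3 in Ppp2r1b_R, with none called in the other clones. Their median change was -0.43 in Bub1b_R, -0.10 in Chek1_R, -0.12 in Ppm1g_R, -0.53 in Ppp2r1b_R and -0.19 in Ctrl_R, where the median over all probes lay between -0.02 and 0. Tcl1, a cofactor of AKT in ESCs, fell by 0.87 and 0.97 in Bub1b_R and Ppp2r1b_R, Esrrb by 0.83 in Ppp2r1b_R, and Pou5f1 was called in no clone (-0.53 to -0.16). Minus Ctrl_R, 1 was higher in Chek1_R and 1 lower in Ppp2r1b_R. Every array detected all 8 of these markers, as the labelled cell type would. Their summed intensity, of deposited signals that are not normalized between arrays here and for the lists below, ran from 25685 to 30015 with Dox and from 21870 to 24133 without in Bub1b_R, from 32462 to 35775 and 26771 to 44553 in Chek1_R, from 42116 to 54180 and 32215 to 39669 in Ppm1g_R, from 18943 to 27674 and 11586 to 15491 in Ppp2r1b_R, and from 24508 to 32677 and 21423 to 28160 in Ctrl_R. It was lower without Dox, with no overlap, in Bub1b_R, Ppm1g_R and Ppp2r1b_R, and the conditions overlapped in Chek1_R and Ctrl_R.

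Of 8 fibroblast feeder markers, 5 were tested, and 2, 3, 2 and 2 were higher in Bub1b_R, Chek1_R, Ppm1g_R and Ppp2r1b_R, with 1 lower in Chek1_R and in Ppm1g_R and none called in Ctrl_R. Their summed intensity over the 3 arrays ran from 443.5 to 477.6 with Dox and from 502.0 to 611.3 without in Bub1b_R, from 538.4 to 619.1 and 617.5 to 927.4 in Chek1_R, from 498.9 to 767.8 and 581.8 to 713.3 in Ppm1g_R, from 448.1 to 628.4 and 479.2 to 745.3 in Ppp2r1b_R, and from 360.6 to 483.8 and 379.9 to 472.4 in Ctrl_R. The brightest probe was that of Thy1 on 29 arrays and of Col1a1 on 1, and brightness does not order transcripts between probes. The conditions were apart in Bub1b_R and overlapped in the other clones. Col1a2, Postn and Lum, which define fibroblasts, were detected on 0 arrays. Dcn, an extracellular matrix gene, rose by 0.68 in Bub1b_R and was at least 1.91-fold, 1.25-fold and 1.31-fold higher in Chek1_R, Ppm1g_R and Ppp2r1b_R. Col1a1, a fibrillar collagen, rose by 1.06, 0.91 and 1.03 in Chek1_R, Ppm1g_R and Ppp2r1b_R, and its change of 0.58 in Bub1b_R was just under the fold limit. Twist2, a basic helix-loop-helix factor of mesenchyme, rose by 0.79 in Bub1b_R and 1.11 in Chek1_R and was not called in Ppm1g_R or Ppp2r1b_R (0.53 and 0.36). The marker called lower was Thy1, a surface glycoprotein named after its values were seen, which fell by 0.81 in Chek1_R and by 0.61 in Ppm1g_R, with changes of -0.32, -0.02 and 0.05 in Bub1b_R, Ppp2r1b_R and Ctrl_R. Minus Ctrl_R, 1, 3, 2 and 1 of the 5 were higher, and 1 was lower in Chek1_R and in Ppm1g_R.

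Of 9 trophoblast markers, 7 were tested, and 4, 4, 3 and 4 were higher in the same clones and none in Ctrl_R. Their summed intensity ran from 8714 to 10870 with Dox and from 14348 to 16471 without in Bub1b_R, from 10741 to 11228 and 16090 to 25362 in Chek1_R, from 17333 to 23184 and 24340 to 28115 in Ppm1g_R, from 11005 to 15107 and 13034 to 17785 in Ppp2r1b_R, and from 4886 to 6212 and 5304 to 6906 in Ctrl_R. The brightest probe was that of Tcfap2c on 18 arrays and of Krt8 on 12. Krt8, an epithelial keratin, rose by 1.13, 1.17, 0.82 and 0.79. Gata3 rose by 1.14, 1.17 and 0.85 in Bub1b_R, Chek1_R and Ppp2r1b_R. Minus Ctrl_R, 3, 3, 1 and 2 of the 7 were higher and none lower. Elf5, by any of its 3 probes, and Hand1, by its single one, defining trophoblast factors, were detected on 0 arrays. Of 6 tested extraembryonic endoderm markers, 3 were higher in Bub1b_R and none was called elsewhere, and Afp was detected on 0 arrays. The summed intensity of the 8 on the array ran from 486.8 to 665.1 with Dox and from 972.8 to 1097 without in Bub1b_R, from 1070 to 1156 and 1216 to 2220 in Chek1_R, from 1532 to 2297 and 1289 to 1721 in Ppm1g_R, from 1310 to 2213 and 1463 to 2123 in Ppp2r1b_R, and from 329.2 to 479.4 and 484.7 to 633.2 in Ctrl_R. It was higher without Dox, with no overlap, in Bub1b_R, Chek1_R and Ctrl_R, and the conditions overlapped in the other clones. In Chek1_R the median deposited signal of an array ran from 29.0 to 48.7, and on the normalized scale the list's median change there was 0.05, with 0 of 6 called. Sox17, an endoderm factor, was at least 1.49-fold higher in Bub1b_R, and Dab2, an endocytic adaptor, was called in no clone (-0.21 to 0.50). Minus Ctrl_R, 3 of the 6 were higher in Bub1b_R and 1 lower in Ppm1g_R. What part cells of these other kinds have in the changes of the streak genes was not tested.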

How the data were processed

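The authors deposited, for each probe and array, a background-subtracted intensity that was not normalized between arrays, and a detection p-value. The submitters' processing notes name lumi, and further steps, the probe sequences and the array's genome build are not given in the sources used here. Detection p-values that a spreadsheet had turned into dates were converted back or taken from the probe nearest in signal on that array.

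In R 4.3.3 with limma 3.58.1, intensities were normalized with neqc (offset 16, quantiles, log2). The filter asked for 3 or more arrays on which the detection p lay under 0.05, and left 15151 of 25697 probes (11177 gene symbols). A fit of 10 condition means (20 residual and 3.38 prior degrees of freedom) gave each contrast, adjusted by Benjamini and Hochberg's method over all tested probes. Lowest and highest r between arrays of a condition were 0.993 and 0.997. Methods were tested on simulated data, with bias, false calls and the recovery of 4-fold changes as marks. A stricter mark set first, on the recovery of 2-fold changes, was missed for the change minus that in Ctrl_R and was replaced, so such comparisons can miss 2-fold changes more often than those within a clone.

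Members and gene lists were chosen with earlier results of these data known. Text names every member, the 3 tested genes per list with the largest absolute mean change over 4 clones (genes that went both ways rank lower), the shRNA targets and the 3 genes most like each member. Outside this rule it names Thy1, Tcfap2c and some genes detected on no array (Foxa2, Col1a2, Postn, Lum, Elf5, Hand1 and Afp). Other listed genes without detection are not named. Alternatives were intensities without background correction, floored at 1, median scaling, an offset of 50, no or a stricter detection filter, only the arrays compared, the replicate number as a block, the methods' t-test and leaving out each array. The arrays of Ctrl_R come from an earlier submission than the other 24. Arrays of Aurka_R were not analysed here, and 1 listed gene is not reported here. Promoter sequences are RefSeq's (GRCm38.p6).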

Additional observations from a re-analysis of the deposited data

Results flagged for a closer look

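A test of the difference between clones picked out the values here, apart from those given as not passing in Ppp2r1b_R. The change on Dox withdrawal, on the log2 scale, exceeded that in Ctrl_R in Bub1b_R by 1.56 for T, 2.66 for Evx1, 1.23 for Gsc and 0.65 for Fgf8. In the arrays labelled Chek1_R the excess was 3.69 for T, 4.39 for Evx1, 1.71 for Gsc and 2.84 for Fgf8. In Ppm1g_R it was 1.88 for Evx1, and in Ppp2r1b_R 1.15 for T, 1.83 for Evx1 and 0.94 for Fgf8. With Dox, Evx1 was detected on 1 of 3 arrays in Chek1_R and in Ppp2r1b_R. In Ctrl_R, T with Dox and Evx1 in both states lay near background. Eomes, Mixl1, Mesp1 and Wnt3 were detected on no Ctrl_R array with Dox, so their difference has no measured size. It passed the test in Bub1b_R, Chek1_R and Ppm1g_R and not in Ppp2r1b_R. The limma adjusted p for these genes, in that order, was 9.36e-08, 6.82e-13, 7.74e-10 and 0.000398 in Bub1b_R, 1.47e-07, 1.17e-12, 9.09e-12 and 3.81e-07 in Chek1_R, 0.000214, 1.11e-09, 0.00131 and 0.0105 in Ppm1g_R, and 0.104, 0.181, 0.0577 and 0.2 in Ppp2r1b_R. These comparisons share the Ctrl_R arrays, which come from an earlier submission.

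The change also differed among the 4 shRNA clones for every member. The F statistic was 176.9 for T, 27.6 for Eomes, 71.4 for Evx1, 148.6 for Mixl1, 77.3 for Gsc, 94.9 for Mesp1, 17.5 for Wnt3 and 372.6 for Fgf8, where Eomes, Mixl1 and Mesp1 enter with values at background in Ppp2r1b_R and in some conditions with Dox.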

How the results depend on the processing

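Counts of members called kept within 1.5 times of the reported ones under most alternatives. The exceptions were the 2 members called on withdrawal in Ctrl_R, which became 0 with an offset of 50, 1 when only the arrays compared were fitted and 1 under the methods' t-test, and the 5 in Ppm1g_R minus Ctrl_R, which became 3 without background correction. With Dox in place of without Dox, the counts against Ctrl_R became 5 in Bub1b_R and 2 in Chek1_R. Leaving out 1 array at a time gave 4 to 5 members on withdrawal in Ppp2r1b_R, 7 to 8 in Bub1b_R minus Ctrl_R, 3 to 4 in Ppp2r1b_R minus Ctrl_R, 4 to 5 in Ppp2r1b_R against Ctrl_R without Dox, and the reported count in the other comparisons. The members concerned were Wnt3 on withdrawal in Ppp2r1b_R (0.60 to 0.71 in the 3 cases called), Fgf8 in Bub1b_R (0.58 without Bub1b_R +Dox replicate 2), Mesp1 in Ppp2r1b_R minus Ctrl_R (called without Ctrl_R -Dox replicate 1) and Eomes in Ppp2r1b_R against Ctrl_R (called without Ppp2r1b_R -Dox replicate 1 or Ctrl_R -Dox replicate 1), the last 2 undetected in Ppp2r1b_R and so with no size.

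Signs turned for small changes. Without background correction, T in Ppm1g_R minus Ctrl_R became -0.01 and Wnt3 on withdrawal in Ctrl_R became -0.13. On leaving out 1 array, the change in Ctrl_R ran from -0.12 to 0.05 for Mixl1, from -0.18 to 0.07 for Mesp1 and from -0.05 to 0.30 for Wnt3, and Mesp1 without Dox in Ppp2r1b_R against Ctrl_R ran from -0.19 to 0.06. The cause was not tested. Of 117 single values, 117 kept direction and call under median scaling, no detection filter and the stricter one, 111 with an offset of 50 and 100 without background correction.

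Same-numbered arrays did not deviate together in all pairs (r from -0.212 to 0.131). For withdrawal in Bub1b_R, r was 0.087, 0.022 and 0.073 for the same number and at most 0.011, 0.016 and -0.032 for another. With 3 arrays per condition the check does not exclude pairing, and the arrays were treated as unpaired. With the replicate number as a block, 117 of 117 values kept direction and call, and 849 probes were called on withdrawal in Bub1b_R, as without it. Signal over background limits Eomes, Mixl1 and Mesp1, whose values in Ctrl_R and Ppp2r1b_R lie at background. With an offset of 50, the probes called on withdrawal fell from 849 to 460 in Bub1b_R, 1404 to 915 in Chek1_R, 662 to 339 in Ppm1g_R, 731 to 342 in Ppp2r1b_R and 167 to 45 in Ctrl_R. Under the methods' t-test the counts were 679, 1244, 441, 206 and 15 in that order. Without background correction they were 1046, 1749, 982, 985 and 293. In Ppp2r1b_R minus Ctrl_R the count went from 497 to 213 when only the arrays compared were fitted, and to 288 under median scaling. The shares of all probes given above are those of the reported fit.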
